A study of Mus musculus with 15 samples.

Results

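The 36 genes described here encode the machinery that carries proteins and RNA through the nuclear pore: 6 exportins, 5 importin alpha adaptors, 8 importins of the beta type, 3 transportins, 7 genes of the Ran GTPase system, both subunits of the mRNA export receptor, and 5 nucleoporins. They were chosen by symbol, and all 36 were found among the 38277 gene identifiers listed in both expression tables. Xpo4 itself, which encodes exportin-4, is not one of them: it is the overexpressed gene, and the question was whether other transport genes change when extra Xpo4 is present.

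RNA sequencing was done on JS1, an established mouse hepatic stellate cell line described by its submitters as TLR4-/- cells that express wild-type TLR4, so every group carries that background. The cells were transduced either with an XPO4 overexpression construct or with an empty vector (EV), and were either left untreated (baseline) or given TGFβ, a cytokine that activates stellate cells. The 15 libraries form 4 groups: 4 EV and 3 XPO4 libraries at baseline, 4 EV and 4 XPO4 libraries with TGFβ. Libraries carry the replicate numbers of the labels, from 0. The labels give no dose or duration of TGFβ, no promoter or species for the construct, and do not say whether a transduced line is a pool or a clone. Nothing in the labels says that replicates came from separate cultures, so a p-value here reflects only how these libraries vary, which may be a technical spread.

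As background, exportins and importins are ring-shaped carriers that bind cargo on one side of the nuclear envelope and release it on the other. The direction is set by the small GTPase Ran, which is kept in its GTP form inside the nucleus by the exchange factor RCC1 and is hydrolysed outside it with the help of RanGAP1 and RanBP1. NTF2, encoded by Nutf2, carries Ran back into the nucleus, and bulk mRNA leaves by the NXF1-NXT1 receptor, which does not use Ran. Exportin-4 is known to export SMAD3, the signal transducer of TGFβ, and the translation factor eIF5A.

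The values are FPKM, a level scaled to transcript length and to the fragments of the library, in 1 deposited table for each treatment. FPKM summed to between 480030 and 526338 per library, and 11829 to 11971 genes reached 1 FPKM. Read depth is unknown because no counts were used here. Of 11 stellate or fibroblast markers 7 reached a mean of 1 FPKM, among them Vim, Col1a1 and Acta2, but Lrat, a defining stellate cell gene, was listed at 0 in every library and Pdgfrb lay between 0.133 and 1.25 FPKM. The hepatocyte genes Alb, Ttr and Hnf4a, the macrophage gene Emr1 and the cholangiocyte gene Epcam were listed at 0 in all 15 libraries. Other markers on those lists were present at low levels: of 6 macrophage markers 2 reached a mean of 1 FPKM, Csf1r at 3.42 and Cd68 at 4.53 FPKM, and of 4 cholangiocyte markers 2 did, Krt7 at 1.45 and Krt19 at 5.59 FPKM. The summed macrophage markers were 8.81 to 9.84 FPKM in EV and 7.06 to 8.88 FPKM in XPO4 cells at baseline, and 7.33 to 9.45 and 4.50 to 7.79 FPKM with TGFβ. The summed cholangiocyte markers were 6.23 to 12.2 and 6.22 to 9.01 FPKM at baseline, and 6.89 to 11.1 and 3.798 to 9.07 FPKM with TGFβ. Their part in the results below was not tested. In such bulk samples, fewer cells of a type and less RNA per cell cannot be told apart.

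The promoters of Nutf2 and Kpna2 are shown because these are the transport genes whose lower level in XPO4 cells, described below, was called with each library left out in turn, in a fit that averaged both treatments. Nutf2 (ENSMUSG00000008450) lies on chromosome 8 from 105860580 to 105879330, and Kpna2 (ENSMUSG00000018362) on chromosome 11 from 106988629 to 106999541, both on mm10 as GENCODE M21 places them. The sequences are the 250 bases before the start annotated in RefSeq on GRCm38.p6, 5′ to 3′ on the gene's own strand. They lie at chr8:105860283-105860532 on the plus strand and chr11:106999526-106999775 on the minus strand. The RefSeq starts differ from those of GENCODE M21. The Nutf2 window stops short of the GENCODE start, and the Kpna2 window runs into the GENCODE span. Capitals mark a CCAAT box (CCAAT) or a GC box (GGGCGG), searched on both strands.
Nutf2: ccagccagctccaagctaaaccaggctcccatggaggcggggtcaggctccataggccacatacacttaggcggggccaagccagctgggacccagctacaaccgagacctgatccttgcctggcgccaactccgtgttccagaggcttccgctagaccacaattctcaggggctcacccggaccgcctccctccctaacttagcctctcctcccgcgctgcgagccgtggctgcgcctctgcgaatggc
Kpna2: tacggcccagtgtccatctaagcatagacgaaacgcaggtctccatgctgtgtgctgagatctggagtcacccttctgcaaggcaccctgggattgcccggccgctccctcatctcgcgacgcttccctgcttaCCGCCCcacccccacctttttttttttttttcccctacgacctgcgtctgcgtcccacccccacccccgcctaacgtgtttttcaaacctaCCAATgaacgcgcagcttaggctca
The Kpna2 window held 1 CCAAT box and 1 GC box, and the Nutf2 window held neither. Neither window held an E-box (CACGTG) or the core AANNGAAA of interferon regulatory factor sites. Over the 38 promoters that matched 30 of the 36 members, 71.1% held a GC box, against 32.7% of 32851 RefSeq promoters of the same length. A CCAAT box was in 42.1% of the members' promoters and 33.8% of all, an E-box in 13.2% and 6.02%, and the AANNGAAA core in 10.5% and 21.3%. In the printed windows no marked site overlapped another, and a match is a description of the sequence only.

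All 36 members were expressed, with means over the 15 libraries from 4.85 to 268 FPKM. The most abundant were Ranbp1, a Ran-binding protein, at 268 FPKM, Kpnb1, the importin beta that carries importin alpha and its cargo, at 259 FPKM, and Ran at 201 FPKM. The least abundant were the exportins Xpo7 and Xpo5, at 4.85 and 5.24 FPKM, and the importin Ipo8 at 6.45 FPKM. Among the exportins, Xpo6, the exporter of actin, stood at 138 FPKM, above Xpot, the tRNA exporter, at 37.5, the importin alpha recycler Cse1l at 25.1 and Xpo1, the exporter of leucine-rich signals, at 23.0 FPKM. Kpna2 led the importin alpha adaptors with 115 FPKM, and the others lay between 14.8 and 37.7 FPKM. The 36 genes lie apart in the genome: the 35 with a position in GENCODE M21 fall on 16 chromosomes.

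**Figure D1:**
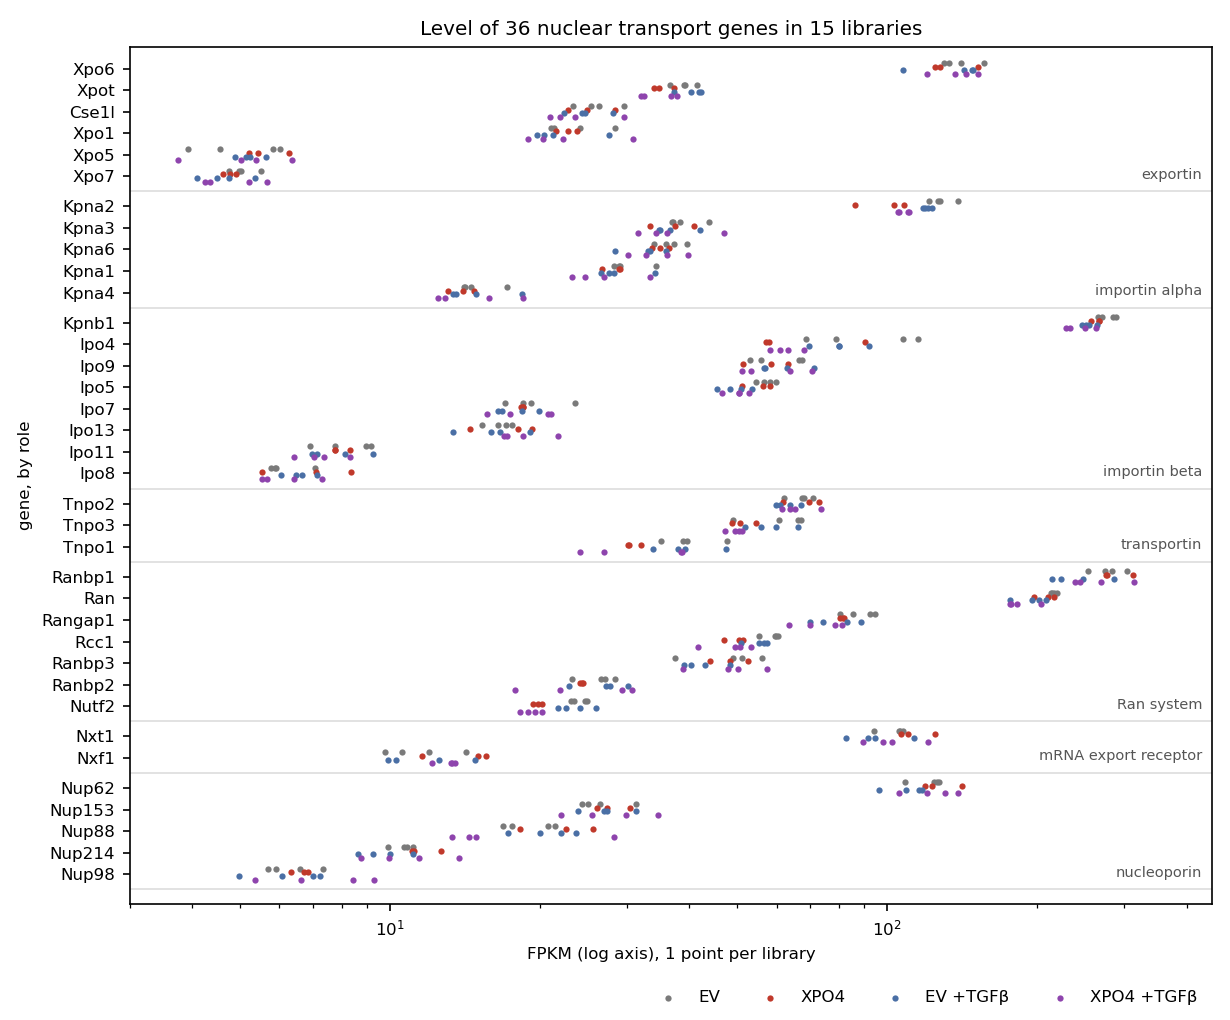
FPKM (log axis) of the 36 transport genes, 1 point per library, coloured by group and ordered by role and mean level. Levels run from 4.85 FPKM for Xpo7 to 268 FPKM for Ranbp1, and the points of the 4 groups lie on top of each other for most genes.

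Members were steady within groups. The SD of log2(FPKM + 1) within groups had a median of 0.158 over the members and ran from 0.0622 for Kpnb1 to 0.298 for the nucleoporin Nup88. Part of that spread was shared between genes and followed transcript length. In the libraries numbered 2 of the EV, EV with TGFβ and XPO4 with TGFβ groups, the 17 members with the longest exons lay above their group means by a median of 0.16, 0.17 and 0.25 on the log2 scale. The same genes lay at -0.18 in XPO4 with TGFβ library 1 and at -0.14 in library 3 of that group, while the median of the 18 shorter members ran from -0.05 to 0.05 over the libraries. The results below are therefore also given without the libraries numbered 2 where that matters. That removes only part of the shift: the longer members also lay at -0.11 in EV with TGFβ library 0 and at 0.11 in XPO4 with TGFβ library 0. In XPO4 baseline library 2, which is left out too, they lay at -0.03.

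**Figure D2:**
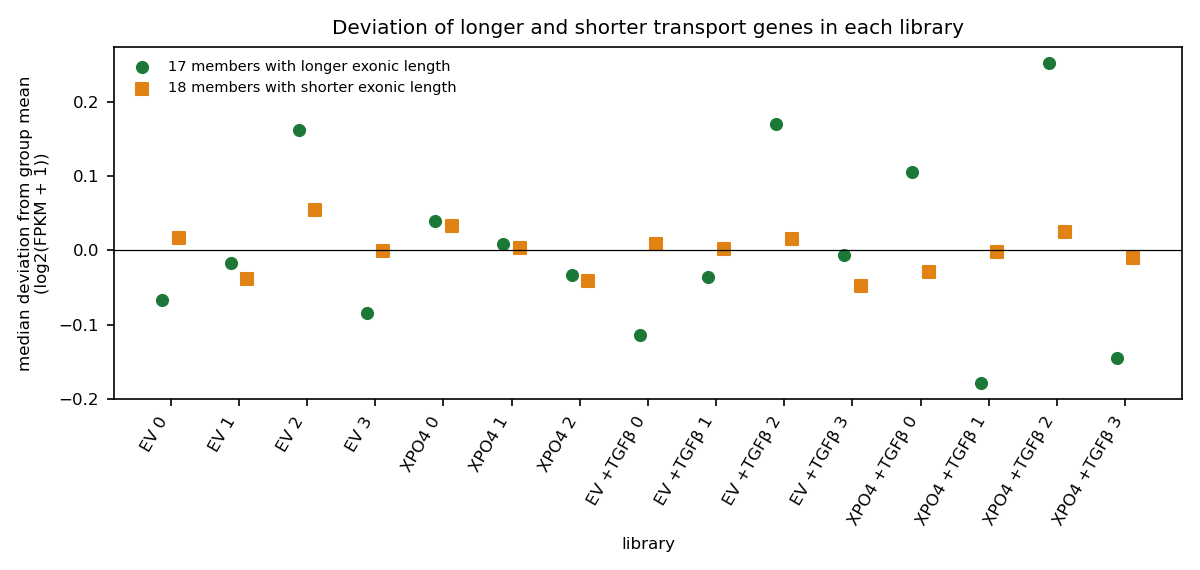
Median deviation of log2(FPKM + 1) from the group mean in each library, for the 17 members with longer exonic length (circles) and the 18 with shorter exonic length (squares). The longer members range from -0.18 to 0.25, and the shorter ones from -0.05 to 0.05.

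Xpo4 was present at about 2-fold its control level in XPO4 cells. At baseline it measured 6.83, 9.33, 8.18 and 6.09 FPKM in EV libraries 0 to 3 and 17.4, 13.97 and 15.7 FPKM in XPO4 libraries 0 to 2. With TGFβ it measured 4.56, 7.16, 8.84 and 8.04 FPKM in EV cells and 15.02, 12.8, 16.2 and 14.5 FPKM in XPO4 cells. Every XPO4 library was above every EV library. The ratio of means was 2.06 at baseline (exact two-sided permutation p = 0.0571, the smallest that 3 against 4 libraries can give) and 2.04 with TGFβ (exact p = 0.0286, the smallest that 4 against 4 can give). As measured by FPKM, Xpo4 RNA remained a small part of the summed carriers. At baseline it made up 3.09% ± 0.621 (SD, n = 4) of summed exportin FPKM in EV cells and 6.40% ± 0.484 (SD, n = 3) in XPO4 cells. With TGFβ the shares were 2.93% ± 0.534 and 5.98% ± 0.552 (SD, n = 4 each). Of the FPKM of all import and export carriers it took 0.634% and 1.42% at baseline. The species and sequence of the construct are not given, so how fully its RNA was counted as mouse Xpo4 is unknown. The ratios and shares in XPO4 cells may therefore be too low, and protein was not measured.

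At baseline no member rose or fell past the threshold when XPO4 cells were compared with EV cells. By limma on log2(FPKM + 1), 0 of the 36 had an adjusted p under 0.05, where 3.71% of the 11926 genes tested did (443 genes, 340 higher and 103 lower). At an unadjusted p under 0.05 there were 4 members, all lower, or 11.1%, against 15.2% of all genes in either direction. Shares at an unadjusted p, here and below, pool higher and lower genes, and a share for lower genes alone is not given. The members' differences had a median of -0.06, against -0.00 for all genes, and 23 of 36 were below 0.

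The 4 lower ones were Kpna2, Nutf2, Tnpo1 and Rcc1. Kpna2, the adaptor that links cargo with a classical import signal to importin beta, measured 128, 121, 139 and 127 FPKM in EV libraries and 108, 86.2 and 103 FPKM in XPO4 libraries. Its log2 difference was -0.38 (SE 0.0903, limma adjusted p = 0.0607). Tnpo1, which imports RNA-binding proteins, measured 38.9, 39.7, 47.7 and 35.1 FPKM in EV and 30.3, 32.0 and 30.1 FPKM in XPO4 cells, a difference of -0.37 (SE 0.104, limma adjusted p = 0.110). In each of the 4 genes the lowest EV library was above the highest XPO4 library. These were the only members whose groups did not overlap with XPO4 lower, 11.1% of the 36, against 7.93% of all genes. No member had non-overlapping groups with XPO4 higher, against 8.23% of all genes.

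On the higher side the members with the smallest p were Nxf1 and Nxt1, the mRNA export receptor and its cofactor, and the nucleoporin Nup88. Their log2 differences were 0.25 (SE 0.149), 0.14 (SE 0.0802) and 0.19 (SE 0.134), with limma adjusted p-values of 0.494, 0.50 and 0.568. Nxf1 measured 14.3, 9.79, 11.999 and 10.6 FPKM in EV and 15.6, 15.02 and 11.6 FPKM in XPO4 cells, so its groups overlapped. Upper limits of the 95% intervals were above 1.5-fold for 1 of the 36 members, Nxf1, at 0.59 on the log2 scale. The whole interval lay within 1.5-fold in either direction for 33 members and for 67.4% of all genes. The exceptions among the members were Ipo4, Tnpo1 and Nxf1. All members had means of 4.85 FPKM or more, whereas genes were tested from a mean of 1 FPKM. Such interval shares, here and in the comparisons below, are not matched for level and do not show that the members are unusually stable.

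With TGFβ, XPO4 cells again had no member past the threshold. By this test 0 of 36 members passed in limma, against 3.74% of 11976 genes (448 genes, 346 higher and 102 lower). At an unadjusted p under 0.05 there were 5 members, all lower, or 13.9%, against 14.0% of all genes in either direction. They were Ipo4, Nutf2, Tnpo3, Kpna2 and Xpot. The median difference of the members was -0.03, against -0.00 for all genes.

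Ipo4, an importin for histones and ribosomal proteins, measured 92.1, 80.0, 80.0 and 69.6 FPKM in EV and 60.8, 58.1, 63.2 and 68.2 FPKM in XPO4 cells with TGFβ. The groups did not overlap, and the difference was -0.35 (SE 0.0967, limma adjusted p = 0.0910). At baseline Ipo4 was the most variable member, with 115, 79.0, 68.5 and 108 FPKM in EV and 90.1, 57.1 and 57.8 FPKM in XPO4 cells. There the groups overlapped. Tnpo3, which imports SR splicing proteins, measured 66.3, 55.7, 59.9 and 51.7 FPKM in EV and 47.1, 50.3, 51.1 and 49.5 FPKM in XPO4 cells with TGFβ, a difference of -0.23 (SE 0.0893, limma adjusted p = 0.263). Its locus overlaps that of Irf5 on the opposite strand, listed at a mean of 14.6 FPKM, and the sources used here do not state the strand setting of the counting.

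Non-overlapping groups with XPO4 lower were found for 4 members with TGFβ, Ipo4, Kpna2, Nutf2 and Tnpo3, 11.1% of the 36 against 4.22% of all genes. With XPO4 higher there were 0, against 6.03% of all genes. On the higher side Nup62, a nucleoporin of the central channel, differed by 0.17 (SE 0.102), Ipo13 by 0.18 (SE 0.125) and Ranbp3, a cofactor of Xpo1, by 0.17 (SE 0.121), with limma adjusted p-values of 0.537, 0.601 and 0.620. The intervals of 34 of 36 members lay within 1.5-fold in either direction, against 67.0% of all genes, and none reached above 1.5-fold higher. The exceptions, Nup88 and Tnpo1, extended on the lower side.

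Kpna2 and Nutf2 were lower without overlap in both treatments, 5.56% of the members against 2.03% of the 11746 genes tested in both. Higher without overlap in both treatments were 0 members, against 3.92% of genes. Nutf2 measured 23.5, 23.1, 24.7 and 25.0 FPKM in EV and 20.3, 19.8 and 19.4 FPKM in XPO4 cells at baseline. With TGFβ it measured 22.7, 26.0, 24.1 and 21.8 FPKM in EV and 20.3, 18.3, 19.0 and 19.6 FPKM in XPO4 cells. The 7 XPO4 libraries thus all lay below the 8 EV libraries. The differences were -0.27 (SE 0.0735, limma adjusted p = 0.105) and -0.28 (SE 0.0877, limma adjusted p = 0.147). Kpna2 with TGFβ measured 121, 118, 123 and 119 FPKM in EV and 105, 110.5, 110.3 and 105 FPKM in XPO4 cells, a difference of -0.16 (SE 0.0631, limma adjusted p = 0.282). A Nutf2 pseudogene, Nutf2-ps1, was listed at 0 to 1.87 FPKM, and the sources used here do not state how fragments that match both were assigned.

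**Figure D3:**
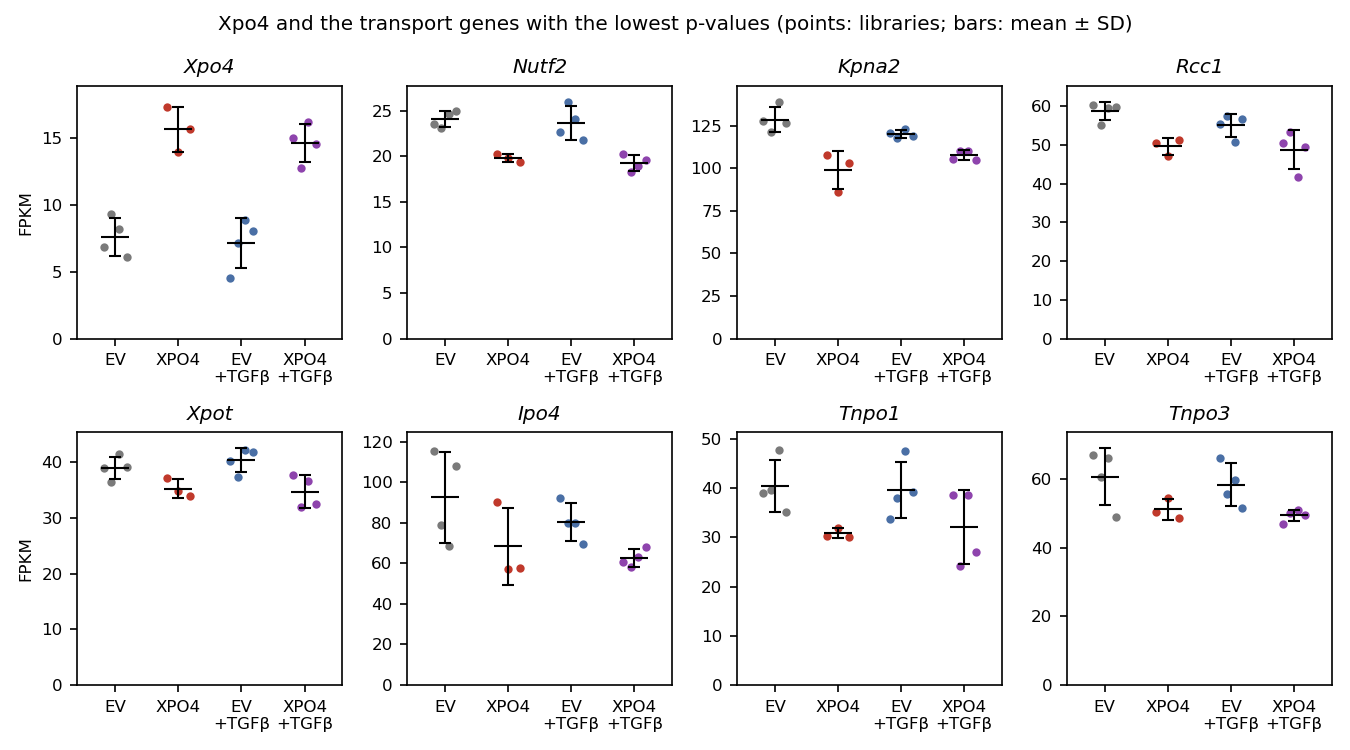
FPKM of Xpo4 and of the 7 transport genes with the lowest p-values in the averaged fit, by group, with 1 point per library and bars for the mean ± SD. Nutf2 lies between 18.3 and 20.3 FPKM in all XPO4 libraries and between 21.8 and 26.0 FPKM in all EV libraries.

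In each treatment the members with an unadjusted p under 0.05 were all lower. Other members changed side, among them Nup88, with log2 differences of 0.19 at baseline and -0.27 with TGFβ. The XPO4 effect was then also averaged over treatments in a single fit of the 15 libraries, with each difference taken within its own table. This fit was added after the values had been seen. It called 10.6% of 11951 genes (1266 genes, 721 higher and 545 lower). Of the 36 members 4 fell, or 11.1%, against 4.56% of all genes called lower, and 0 rose, against 6.03% of all genes called higher. At an unadjusted p under 0.05 there were 7 members, all lower, or 19.4%, against 22.4% of all genes in either direction.

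The 4 members that fell were Nutf2, by 0.27 on the log2 scale (SE 0.0512, limma adjusted p = 0.00217), Kpna2, by 0.27 (SE 0.0509, adjusted p = 0.00242), Rcc1, by 0.21 (SE 0.0560, adjusted p = 0.0270), and Xpot, by 0.18 (SE 0.0542, adjusted p = 0.0477). On the scale of FPKM + 1 these are changes of -17.3%, -16.9%, -13.4% and -11.7%. Nutf2 and Kpna2 were called with each of the 15 libraries left out, with adjusted p-values from 0.00218 to 0.00857 and from 0.00165 to 0.00655. Rcc1 was called in 9 of these 15 fits, with an adjusted p of up to 0.0785 without XPO4 baseline library 1. Xpot was called in 4 of 15, with an adjusted p of up to 0.116 without XPO4 baseline library 2. Without the 4 libraries numbered 2, Nutf2, Kpna2 and Rcc1 were called and Xpot was not (adjusted p = 0.180). The labels' library codes form 2 sets, with replicates 0 and 1 in one and 2 and 3 in the other, which are not stated to be batches. With that set as a block, Kpna2, Nutf2, Rcc1 and Tnpo3 were called lower and Xpot was not, and with limma without a trend Xpot was not called either.

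Rcc1, the exchange factor that loads Ran with GTP, measured 60.3, 55.2, 59.6 and 59.8 FPKM in EV and 50.5, 47.0 and 51.3 FPKM in XPO4 cells at baseline. With TGFβ it measured 55.4, 57.4, 50.7 and 56.6 FPKM in EV and 50.5, 53.2, 41.7 and 49.5 FPKM in XPO4 cells. The baseline groups were apart, and the TGFβ groups overlapped through EV library 2 and XPO4 library 1. Rcc1 shares its locus and strand with Snhg3, a noncoding host gene of snoRNAs listed at a mean of 240 FPKM, so its level is uncertain where fragments could be given to either gene. Xpot measured 39.0, 36.5, 41.5 and 39.2 FPKM in EV and 37.2, 34.8 and 33.9 FPKM in XPO4 cells at baseline. With TGFβ it measured 40.3, 37.4, 42.2 and 41.9 FPKM in EV and 37.8, 31.9, 36.7 and 32.5 FPKM in XPO4 cells. Its groups overlapped by 1 EV library in each treatment.

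Just outside the threshold in the averaged fit were Ipo4 (-0.39, SE 0.123, limma adjusted p = 0.0540), Tnpo3 (-0.23, SE 0.0719, adjusted p = 0.0543) and Tnpo1 (-0.34, SE 0.108, adjusted p = 0.0571). All 3 passed, still lower, after rescaling to TPM, after quantile normalization and after median centring, where 7 members were called lower and 0 higher. Those scalings also changed the split of calls over all genes, from 721 higher and 545 lower to 560 and 810 on the TPM scale, 649 and 775 after quantile normalization, and 660 and 661 after median centring. With the length trend removed, Tnpo1 passed and Ipo4 and Tnpo3 did not. With no rescaling but only genes of a mean of at least 5 FPKM, Ipo4 and Tnpo3 passed and Tnpo1 did not. Without the libraries numbered 2, none of these 3 genes passed. The members with the smallest p above 0 were Nxf1 at 0.20 (SE 0.10, limma adjusted p = 0.268), Nup62 at 0.12 (SE 0.0690, adjusted p = 0.331) and Nxt1 at 0.12 (SE 0.0757, adjusted p = 0.396). For 35 of the 36 members the 95% interval lay within 1.5-fold in either direction, against 81.5% of all genes, and none reached above 1.5-fold higher.

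**Figure D4:**
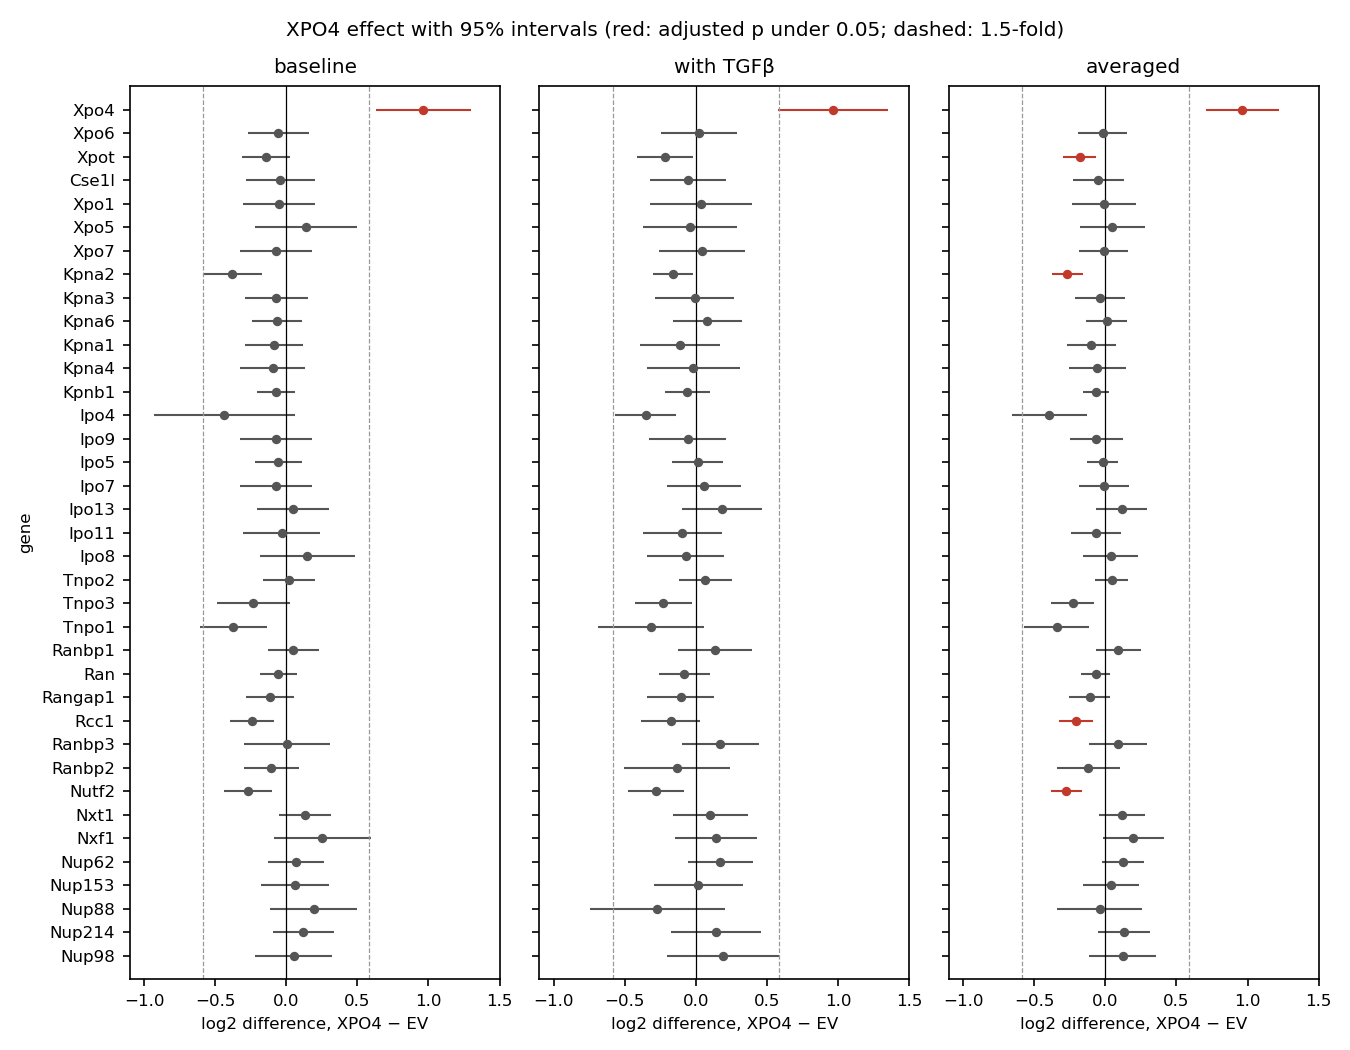
Difference of log2(FPKM + 1) between XPO4 and EV cells for Xpo4 and the 36 members at baseline, with TGFβ and averaged over both, with 95% intervals (red: limma adjusted p under 0.05). Xpo4 stands at 0.96, 0.97 and 0.96, and among the members only Nutf2, Kpna2, Rcc1 and Xpot are red, in the averaged fit and below 0.

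By role, the exportins other than Xpot stayed near 0. In the averaged fit Xpo1 differed by -0.01 (95% interval -0.23 to 0.22), Xpo6 by -0.02 (-0.19 to 0.16), Xpo7 by -0.01 (-0.18 to 0.16), Cse1l by -0.05 (-0.23 to 0.13) and Xpo5, the exporter of microRNA precursors, by 0.05 (-0.18 to 0.28). Summed exportin FPKM without Xpo4 was 239 ± 19.2 (SD, n = 4) in EV and 229 ± 13.4 (SD, n = 3) in XPO4 cells at baseline, and 234 ± 21.8 and 230.0 ± 10.1 (SD, n = 4 each) with TGFβ. The rise in Xpo4 was therefore seen beside an exportin sum that differed by less than its SD. That sum was mostly Xpo6, at a mean of 138 FPKM, so it says little about the other exportins.

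The importin alpha sum was lower in XPO4 cells at baseline, at 206 to 223 FPKM against 240.1 to 274 FPKM in EV cells, and overlapped with TGFβ, at 205 to 249 against 224 to 254 FPKM. Most of the baseline difference was Kpna2: the other 4 adaptors, Kpna1, Kpna3, Kpna4 and Kpna6, differed by -0.06 to -0.10 on the log2 scale at baseline, each with an interval that included 0. Importin beta itself, Kpnb1, differed by -0.07 (SE 0.0414, limma adjusted p = 0.397) in the averaged fit. An antisense gene within its locus, Gm11583, was listed at a mean of 195 FPKM, so the Kpnb1 level is also uncertain without the counting strand. Ipo5, Ipo7, Ipo8, Ipo9, Ipo11 and Ipo13 lay between -0.06 and 0.11 in that fit.

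In the Ran system, Nutf2 and Rcc1 were lower, while Ran differed by -0.07 (SE 0.0472, limma adjusted p = 0.439) and Ranbp1 by 0.09 (SE 0.0747, adjusted p = 0.522) in the averaged fit. Rangap1, the GTPase activator, differed by -0.11 (SE 0.0665, limma adjusted p = 0.366), and Ranbp2, the pore filament protein to which it is anchored, by -0.12 (SE 0.103, adjusted p = 0.551). Both subunits of the mRNA export receptor and 4 of the 5 nucleoporins had positive averaged differences, from 0.04 to 0.20, the fifth, Nup88, was at -0.04, and none passed. Genes of the same kinds outside the 36 did not lean to one side: 13 of 25 other nucleoporins were above 0 and 12 below (median 0.00), and 10 of 22 other mRNA export factors were above 0 and 12 below (median -0.01). The summed FPKM of Nxf1 and Nxt1 at baseline, mostly Nxt1, was 106 to 119.9 in EV and 122 to 140.3 in XPO4 cells. With TGFβ that sum overlapped, at 92.7 to 128 and 103 to 134 FPKM. The nucleoporin sum, mostly Nup62, overlapped at baseline (180 to 191 and 183 to 214 FPKM) and did not with TGFβ (166 to 181 and 187 to 189 FPKM). No test was made on these sums.

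Other genes of the pathway gave no call. Of 63 further listed genes, covering other carriers and Ran regulators, other nucleoporins and other mRNA export factors, 58 were tested, and limma called 0 of them at baseline, with TGFβ, in the interaction, in either TGFβ effect, or in the averaged fit. At an unadjusted p under 0.05, 2 were lower and 0 higher at baseline, 0 lower and 2 higher with TGFβ, and 3 lower and 2 higher in the averaged fit, where 15.2%, 14.0% and 22.4% of all genes passed that level in either direction. For the interaction the counts were 0 and 2, for TGFβ in EV cells 5 and 0, and for TGFβ in XPO4 cells 2 and 2, where 2.88%, 11.5% and 10.1% of all genes passed. The one with the smallest p at baseline was Rangrf, a Ran guanine nucleotide release factor, at 20.1 ± 4.63 FPKM in EV (SD, n = 4) and 10.1 ± 3.05 FPKM in XPO4 cells (SD, n = 3; limma adjusted p = 0.0625). With TGFβ its levels were 11.5 ± 0.805 and 12.4 ± 3.09 FPKM (SD, n = 4 each), and the XPO4 mean was not the lower one there.

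The summed FPKM of 24 interferon-stimulated genes was 2705 to 3099 in EV and 8015 to 8346 in XPO4 cells at baseline, and 2435 to 2808 against 7816 to 9132 with TGFβ. The sum of 24 proliferation genes was 1750 to 1797 in EV and 1654 to 1761 in XPO4 cells at baseline, and 1606 to 1684 and 1571 to 1674 with TGFβ, so the ranges overlapped in both. Limma called 1 of these 24 genes lower at baseline and 0 with TGFβ, where 3.71% and 3.74% of all genes were called in either direction. At an unadjusted p under 0.05, 6 and 3 were lower and 1 and 0 higher, against 15.2% and 14.0% of all genes. In the averaged fit 3 of the 24, Top2a, Ccnb2 and Ube2c, were called lower and 0 higher, against 4.56% and 6.03% of all genes. There 7 were lower and 2 higher at an unadjusted p under 0.05, against 22.4% of all genes in either direction. Kpna2 is known to be higher in dividing cells. The part of either list in the lower levels of Kpna2 and Nutf2 was not tested.

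The XPO4 effect on the members was not shown to depend on TGFβ. The interaction called 0 of 11951 genes by limma (0%), and 344 (2.88%) had an unadjusted p under 0.05. Among the members 1 did, or 2.78%: Kpna2, whose difference was less negative with TGFβ by 0.22 on the log2 scale (SE 0.102, limma adjusted p = 0.9998). For Nutf2 the interaction was -0.01 (95% interval -0.23 to 0.21). The widest was Nup88 at -0.47 (95% interval -1.07 to 0.13). In the XPO4 cells with TGFβ, Nup88 measured 14.9, 13.3, 28.2 and 14.4 FPKM, so library 2 alone lay far above the other 3. Nup88 overlaps Rabep1 on the opposite strand, listed at a mean of 17.2 FPKM.

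TGFβ itself changed no member past the threshold. These effects compare levels across the 2 tables, which may have been normalized separately. In EV cells limma called 1.77% of genes (212 of 11951, 148 higher and 64 lower) and 0 of 36 members. At an unadjusted p under 0.05 there were 3 members, all lower, or 8.33%, against 11.5% of genes in either direction. Ipo5, an importin for ribosomal proteins, differed by -0.21 (SE 0.0685, limma adjusted p = 0.196). Ran differed by -0.14 (SE 0.0642, adjusted p = 0.396) and Kpnb1 by -0.12 (SE 0.0563, adjusted p = 0.407). Ran measured 216.4, 213, 219.8 and 215 FPKM in EV cells at baseline and 209, 195.5, 202 and 177 FPKM in EV cells with TGFβ. The highest TGFβ library was below the lowest baseline library.

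In XPO4 cells the TGFβ effect called 1.77% of genes (211 of 11951) and 0 members. At an unadjusted p under 0.05 there was 1 member, or 2.78%, against 10.1% of genes in either direction. It was Ran, at 210.4, 216.3 and 198 FPKM without and 177, 203, 183 and 176 FPKM with TGFβ (-0.17, SE 0.0693, limma adjusted p = 0.368). The ranges overlapped. Members below 0 numbered 28 of 36 in EV cells and 26 of 36 in XPO4 cells, with medians of -0.07 and -0.04 against -0.01 for all genes in both. The 2 TGFβ effects use different libraries, and the difference between them is the interaction above. Every member's interval lay within 1.5-fold in either direction for the TGFβ effect in EV cells, against 73.6% of all genes, and 35 of 36 did in XPO4 cells, against 69.5%; the exception was Nup88, at -0.36 (95% interval -0.80 to 0.08).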

How the data were processed

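Per the labels' protocols, poly(A) RNA from JS1 cells was converted to stranded libraries by dUTP marking. CASAVA 1.8.2, STAR 2.7.2b and the builds mm10 and GRCh38 are listed in the submitters' processing notes, with no role for either build. The deposited values are FPKM computed by the authors, and the program and its strand setting are not given in the sources used here. Values show no whole-read steps, so depth is unknown and no counting interval is given.

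Members, gene lists and tests were chosen with earlier results of these data known. Differences were tested with limma 3.58.1 (with trend, R 4.3.3) on log2(FPKM + 1), a scale that understates changes of low genes, over genes whose mean in the libraries of a fit was 1 FPKM or more. P-values were adjusted by Benjamini-Hochberg over all genes tested, with a threshold of 0.05. XPO4 effects were fitted within each table, on 7 or 8 libraries, and the interaction and the TGFβ effects on 15. Xpo4 was also tested by an exact permutation test. The fit averaged over treatments, median centring, removal of a length trend (lowess span 0.3) and leaving out the libraries numbered 2 were added once the data were known. The scripts were tested on simulated data. Named genes were those called and, where none was, the 3 members with the smallest p in each direction. The most and least abundant members and up to 4 called genes of other lists were also named. Members with unadjusted p under 0.05 or groups that do not overlap, Tnpo1, Tnpo3, Rangrf and the role examples were named after their values were seen. Positions and exonic lengths are from GENCODE M21. Figures used Python 3.11.15 and matplotlib 3.10.9.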

Additional observations from a re-analysis of the deposited data

Results flagged for a closer look

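Of 108 groups of 4 libraries tested over the 36 members, 9 held a library far from the other 3, where chance flags about 1 in 20 groups. In EV baseline library 2, 5 members stood apart: Kpna1 (34.3 FPKM, against 28.2 to 29.0 in the other 3), Kpna4 (17.2, against 14.1 to 14.6) and Ipo8 (7.09, against 5.76 to 5.90) were high, and Nxt1 (94.2, against 106 to 107) and Nup62 (109, against 124 to 127) were low. The other cases were Rcc1 in EV baseline library 1 (55.2 FPKM, against 59.6 to 60.3), Xpo6 in EV with TGFβ library 0 (108, against 142 to 149), Nxf1 in XPO4 with TGFβ library 0 (12.1, against 13.3 to 13.5) and Nup88 in XPO4 with TGFβ library 2 (28.2, against 13.3 to 14.9). Without EV baseline library 2, the averaged fit called Ipo4, Kpna2, Nutf2 and Rcc1.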

How the results depend on the processing

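The members' calls moved with scaling. At baseline 1 member, Kpna2, was called lower on the TPM scale and 1 after median centring (limma adjusted p over the alternatives from 0.0390 to 0.169). With TGFβ 1 member, Ipo4, was called lower after quantile normalization and 1 on the TPM scale (limma adjusted p from 0.0411 to 0.215). In the averaged fit 7 members were called after quantile normalization, on the TPM scale, after median centring and with a replicate block. With the length trend removed 5 were called, all lower: Kpna2, Nutf2, Rcc1, Tnpo1 and Xpot. With only genes of a mean of at least 5 FPKM, 6 were called, all lower: Ipo4, Kpna2, Nutf2, Rcc1, Tnpo3 and Xpot. Without the libraries numbered 2, the TGFβ effect in XPO4 cells called 1 member, Nup88. On the TPM scale the TGFβ-treated split was 311 higher and 155 lower. The cause of these shifts was not tested.

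Correlations of deviations from the group means for same-numbered EV and XPO4 libraries were 0.02 to 0.04 at baseline and -0.15 to 0.25 with TGFβ. The 0.25 was for the libraries numbered 2, which also gave 0.16 between EV cells without and with TGFβ. With so few libraries per group, such values cannot show whether replicate numbers pair the samples. With the replicate block, baseline calls over all genes were 224 in place of 443, with 205 of them higher, and 414 in place of 448 with TGFβ. In the averaged fit they were 1310 in place of 1266. Calls of the interaction were 1 on the TPM scale, 1 with the length trend removed and 1 without the libraries numbered 2. The TGFβ effect in EV cells had 123 calls without the libraries numbered 2.

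With each library left out in turn, all-gene calls ranged from 276 to 451 at baseline (276 without XPO4 baseline library 0, 289 without library 1), 337 to 425 with TGFβ, 0 to 1 for the interaction, 108 to 243 for TGFβ in EV cells (108 without EV with TGFβ library 1, 121 and 140 without EV baseline libraries 0 and 3), 118 to 214 for TGFβ in XPO4 cells (130 and 118 without XPO4 baseline libraries 0 and 1) and 948 to 1323 in the averaged fit. Member calls ranged from 0 to 1 for TGFβ in XPO4 cells (Nup88, without XPO4 with TGFβ library 2), stayed at 0 for the other 4 comparisons, and ranged from 2 to 5 in the averaged fit, with 2 without EV baseline library 0 or XPO4 baseline library 1. The member medians moved by less than 0.133 on the log2 scale in the alternatives run, the SD of the members' median level within groups. The medians themselves lay between -0.07 and 0.04, so this limit could not detect a change of sign. With a pseudocount of 0.1, the log2 differences of Xpo4 between XPO4 and EV cells moved by less than the SD of the EV libraries. The Xpo4 exact test was not rerun.

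The difference of Ipo13 between XPO4 cells with and without TGFβ changed sign without XPO4 baseline replicate 1, from 0.10 to -0.0119, and reached 0.182 with another single library left out and 0.22 without the libraries numbered 2. Depth is unknown, and the intervals given reflect the spread between libraries.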
